A study of Mus musculus with 28 samples.

Results

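The genes described here are 10 genes used to recognise alternatively activated and tissue-resident macrophages, measured in retroperitoneal fat of mice fed conjugated linoleic acid (CLA). They are Chil3, Retnla, Arg1, Mrc1, Clec10a, Mgl2, Cd163, Lyve1, Folr2 and Timd4, out of 18194 genes measured. A gene was included where at least 1 probe set of the array is annotated to it alone, and all 10 were found. Where a gene has several such probe sets, the brightest on average over the 28 arrays stands for it. Of the members, 9 have 1 such probe set and 1, Lyve1, has 2. Under CLA the genes did not move as a group. Over all 7 days of feeding Chil3, Arg1, Mrc1, Clec10a and Folr2 rose, Retnla, Mgl2 and Timd4 fell, and Cd163 and Lyve1 did not pass the test.

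Macrophages of fat tissue take different programmes. Interleukin 4 and interleukin 13, acting through their receptors and the transcription factor STAT6, switch on in the mouse a programme called alternative activation, whose usual markers are the secreted proteins Ym1 (Chil3) and RELM alpha (Retnla), the enzyme arginase 1 (Arg1) and sugar-binding receptors of the C-type lectin family (Mrc1, Clec10a, Mgl2). Macrophages that live in tissues for long periods carry scavenger and uptake receptors such as Cd163, Lyve1, Folr2 and Timd4, and in lean fat many of these cells lie along blood vessels.

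The mice were 9 weeks old, and the labels write their strain as C57BK/6J. They ate a diet with 0.5% of the trans-10 cis-12 isomer of CLA or the control diet without it. Fat was taken on days 1, 2, 3, 4, 7, 10 and 17, and 2 Affymetrix arrays were run for every diet on every day, which makes 14 groups. The labels give each array as a pool of the fat pads of 10 mice. They leave unclear if both arrays of a group come from separate pools, and the series text counts fewer mice than separate pools for every array would need. The spread between the arrays of a group, on which every p-value of a single day rests, may thus be technical. Tests of how a level or an effect differs between days, fitted over the 14 groups, rest on the same spread. The values are log2 signals. A level of 1 probe set is not compared with that of another, since probes differ in how brightly they bind.

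The array medians lay between 4.1 and 4.2 and the replicates of a group correlated at 0.979 to 0.995 across genes. Adipocyte genes were strong on every array, with a mean log2 signal of 13.19 for Adipoq (adiponectin) and 13.81 for Fabp4 (the fatty acid carrier of fat cells). One array stood apart for several of the 10 genes, control day 2 replicate 1. It read 9.32 for Chil3 and 7.78 for Arg1, while the control arrays of the other days read 2.92 to 4.49 and 3.34 to 5.81. Over all genes its mean absolute distance was 0.303 log2 units to the CLA arrays of day 2 and 0.32 to the other control array of that day. To the control arrays of the other days the distance was 0.278 to 0.389, and replicate pairs of the other groups lay 0.178 to 0.357 apart. Results that rest on control day 2 replicate 1 are given with and without it. Of the 4 arrays of day 1, 3 had the highest 3′ to 5′ differences of all arrays for the Gapdh control probes, a sign of RNA quality, with 1.31 and 1.27 log2 units in CLA arrays and 1.33 and 0.15 in control arrays. The part of RNA quality in the day 1 values was not tested.

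**Figure D1:**
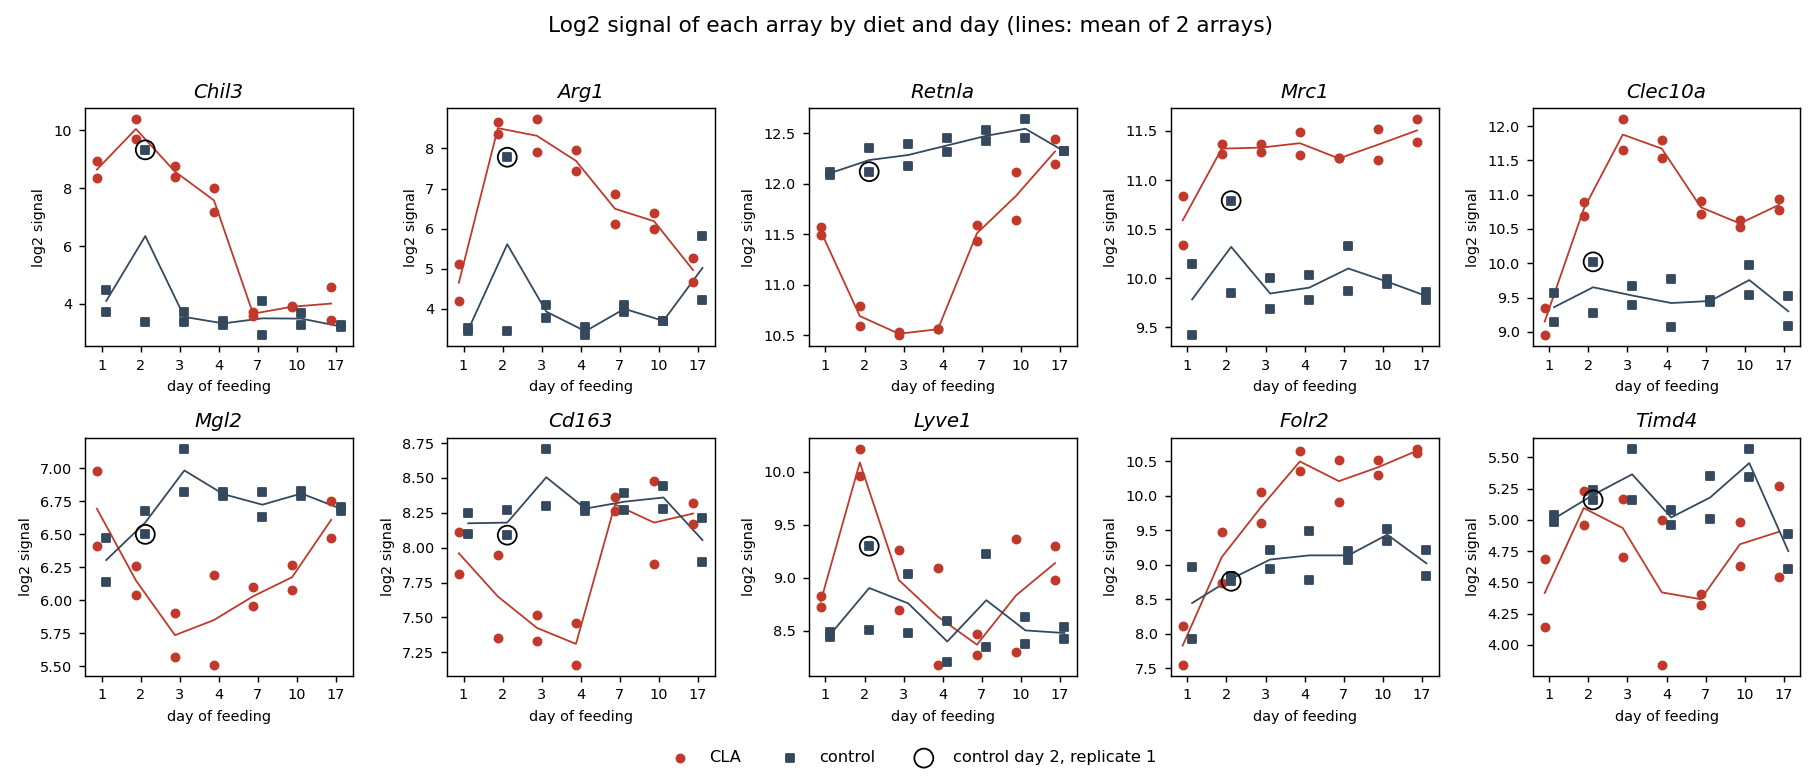
Log2 signal (vertical axis) of each of the 10 genes on every array by day of feeding (horizontal axis), with CLA arrays as red circles, control arrays as dark squares and lines through the mean of the 2 arrays of a group. The circled point is control day 2 replicate 1, which lies at 9.32 for Chil3 and 7.78 for Arg1, and the vertical scales differ between genes.

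The number of members that changed was lowest on days 1 and 17 and highest on day 4, where 8 of 10 passed the test, against 24.1% of all genes. A gene counts as changed where its adjusted p from limma, a linear model with moderated variances fitted over all genes, lay under 0.05. On day 1, 2 members rose and 1 fell, where 7.96% of all genes rose and 10.8% fell (with the arrays centred on their medians, 1895 genes rose and 1708 fell in place of 1449 and 1971). On day 2, 5 rose and 1 fell, where 4.84% of all genes rose and 5.34% fell. On day 3, 4 rose and 3 fell, against 11.3% and 11% of all genes.

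On day 4, 5 members rose and 3 fell, where 12.8% of all genes rose and 11.3% fell. Day 7 had 4 that rose and 2 that fell, against 8.74% and 8.57% of all genes. Day 10 had the same counts of 4 and 2, against 10% and 10.2%. By day 17, 3 rose (Mrc1, Clec10a and Folr2) and none fell at an adjusted p under 0.05, where 11.5% of all genes rose and 8.78% fell (centred on the medians, 1780 genes rose and 2313 fell in place of 2090 and 1598). Day 17 is thus the only one of the 7 days without a member that fell in this fit, though none of 10 is near the all-gene share of 8.78%.

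Taken over all 7 days, with the day as the unit of replication, 5 members rose and 3 fell, where 18.7% of all genes rose and 19.8% fell. The median difference of the members was 0.57 log2 units and that of all genes was -0.03. Without control day 2 replicate 1 the counts over all 7 days were also 5 and 3, against 18.9% and 20.2% of all genes. A higher or lower signal in whole fat can come from more or fewer cells of a kind or from more or less RNA in each, and in these pools they cannot be told apart.

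Leaving out control day 2 replicate 1 changed the count on day 1, where Arg1 was added and 3 members rose and 1 fell (8.61% of all genes rose and 11.1% fell). On the other days the counts were as with all arrays. All-gene shares up and down were then 7.51% and 5.86% on day 2, 11.6% and 11.2% on day 3, and 13.1% and 11.4% on day 4. Later they were 9.2% and 8.7% on day 7, 10.4% each on day 10, and 12.1% and 8.96% on day 17.

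**Figure D2:**
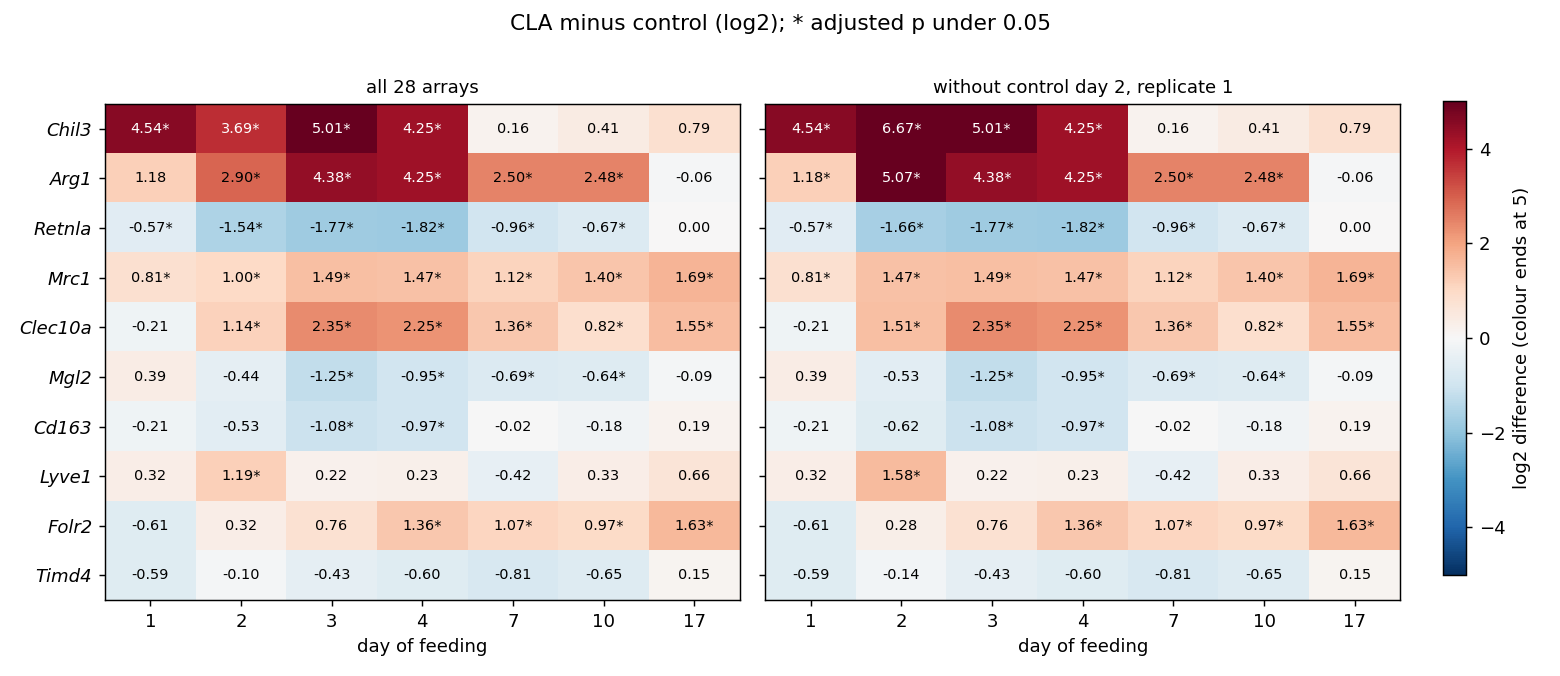
CLA minus control difference (log2, colour and printed value) of the 10 genes (rows) on each of the 7 days (columns), with all 28 arrays on the left and without control day 2 replicate 1 on the right, and an asterisk where the adjusted p lay under 0.05. Chil3 has its 4 largest differences on days 1 to 4 and Arg1 its 3 largest on days 2 to 4 with all arrays, Mrc1 carries an asterisk on all 7 days, and Retnla, Mgl2 and Cd163 are blue on days 3 and 4.

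Chil3 encodes Ym1, a chitinase-like lectin without enzyme activity that mouse macrophages, and also neutrophils and their precursors, secrete. The gene lies on chromosome 3 (106147554 to 106167564, GRCm38.p6). On day 1 it read 8.92 and 8.36 in CLA arrays, against 4.49 and 3.72 in control arrays. On day 3 the signals were 8.77 and 8.37 in CLA arrays and 3.74 and 3.37 in control arrays. Both CLA arrays lay far above both control arrays on each of these days. The differences were 4.54 log2 units on day 1 (adjusted p = 0.00398), 5.01 on day 3 (adjusted p = 0.00136) and 4.25 on day 4 (adjusted p = 0.00472), each with an SE of 1.05. Chil3 was dim, with 17 of 28 arrays below the median of all probe sets on the array, and no linear fold is given against such control signals.

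The Chil3 difference was small from day 7 on. CLA arrays read 3.73 and 3.60 on day 7, against 4.09 and 2.92 in control arrays, and the groups overlapped. On day 17 the signals were 4.58 and 3.45 in CLA arrays and 3.19 and 3.26 in control arrays. None of days 7, 10 and 17 passed the test for Chil3, with differences of 0.16, 0.41 and 0.79 and a 95% interval for day 17 of -1.40 to 2.98. Without control day 2 replicate 1 these differences were unchanged, and the interval for day 17 was -0.03 to 1.61 (SE 0.39 in place of 1.05). Chil3 was 2.69 ± 0.67 log2 units higher under CLA over all 7 days (SE over days, adjusted p = 0.0115). Without days 1 and 2 this value was 2.12 and its adjusted p 0.0526, which missed the threshold.

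Chil3 has a close relative, Chil4, whose transcripts could bind the same probes. The probe set annotated to Chil4 alone read 3.00 to 3.56 on all 28 arrays. A probe set annotated to both genes differed by 2.63, 2.89, 3.40, 2.88, -0.15, 0.07 and 0.03 log2 units on days 1, 2, 3, 4, 7, 10 and 17. Of the other chitinase-like and resistin-like genes listed, 6 were measured. None of the 6 rose and 1 fell over all 7 days, which was Retn (resistin, a hormone of fat cells), by 1.43 log2 units. Among all genes 18.7% rose and 19.8% fell. Chit1, a true chitinase, differed by 0.00.

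The 250 bases before the start of Chil3 are shown because the gene is a textbook target of STAT6, and Retnla, another such target, moved the other way. The sequence is that of RefSeq on GRCm38.p6, chr3:106167565-106167814, minus strand, and capitals mark the match to TTCNNNGAA, the spacing that most STAT proteins bind.
Chil3: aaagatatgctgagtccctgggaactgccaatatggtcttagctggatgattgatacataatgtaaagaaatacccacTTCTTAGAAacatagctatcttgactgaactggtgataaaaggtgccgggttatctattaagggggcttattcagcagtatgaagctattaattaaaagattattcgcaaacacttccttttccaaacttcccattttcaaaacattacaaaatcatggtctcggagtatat
The match, TTCTTAGAA, runs from 172 to 164 bases before the start, and 7.02% of the 32851 promoters searched over the same length hold this motif. A match to letters describes the sequence and is not evidence of binding.

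Retnla encodes RELM alpha, a small secreted protein of the resistin family that macrophages make in response to interleukin 4 and interleukin 13. The gene lies on chromosome 16 (48842609 to 48844461). On day 3 it read 10.53 and 10.50 in CLA arrays, against 12.39 and 12.18 in control arrays. On day 4 both CLA arrays read 10.56, and the control arrays 12.31 and 12.45. The gaps between replicates were at most 0.21 on these days, and the diets lay well apart. The difference was -1.82 log2 units on day 4 (3.53-fold lower, SE 0.15, adjusted p = 9.63e-08) and -1.54 on day 2 (adjusted p = 2.76e-06).

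Retnla fell on 6 of the 7 days. The first day already showed it, with 11.49 and 11.57 in CLA arrays, against 12.09 and 12.12 in control arrays (difference -0.57, adjusted p = 0.0107). The day 1 call was lost without CLA day 1 replicate 1 (-0.54, adjusted p = 0.0634) and without control day 1 replicate 2 (-0.56, adjusted p = 0.0555). On day 10 the CLA arrays read 12.12 and 11.64 and the control arrays 12.45 and 12.64, a difference of -0.67 that became -0.43 and lost its call without CLA day 10 replicate 2. By day 17 the groups overlapped, at 12.44 and 12.20 in CLA arrays and 12.32 and 12.32 in control arrays, and the difference was 0.00 with a 95% interval of -0.32 to 0.32. Over all 7 days Retnla was lower under CLA by 1.05 ± 0.22 log2 units (difference -1.05, adjusted p = 0.0049). The control arrays of Retnla all lay between 12.09 and 12.64, control day 2 replicate 1 included, and its call over all 7 days held without that array (-1.07, adjusted p = 0.00463).

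The 250 bases before the start of Retnla, from RefSeq on GRCm38.p6 at chr16:48842359-48842608, plus strand, carry matches in capitals to GAGGAAG (the letters of PU.1, a macrophage factor, here on the opposite strand as CTTCCTC), the letters TTC and GAA with any 4 bases between them (the spacing preferred by STAT6) and TTGCNNAA (C/EBP).
Retnla: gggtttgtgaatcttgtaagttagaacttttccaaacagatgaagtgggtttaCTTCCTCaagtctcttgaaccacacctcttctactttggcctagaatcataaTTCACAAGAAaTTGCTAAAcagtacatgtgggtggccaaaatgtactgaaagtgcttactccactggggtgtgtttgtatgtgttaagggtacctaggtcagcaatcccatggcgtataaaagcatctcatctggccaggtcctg
The STAT6 match, TTCACAAGAA, runs from 145 to 136 bases before the start and the C/EBP match, TTGCTAAA, from 134 to 127, with no overlap between them. Both strands were searched. The motifs occur in 10.6% (GAGGAAG), 5.85% (the STAT6 spacing) and 9.56% (TTGCNNAA) of the 32851 promoters. Of the 8 promoters of the 7 members in the table, 2 hold GAGGAAG, those of Mrc1 and Retnla, and 1 holds each of the other 3 motifs.

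Arg1 encodes arginase 1, which splits arginine into urea and ornithine, the starting point of polyamine and proline synthesis. It lies on chromosome 10 (24915207 to 24927470). On day 3 Arg1 read 8.73 and 7.90 in CLA arrays, against 4.09 and 3.77 in control arrays. On day 4 it read 7.43 and 7.95 in CLA arrays and 3.54 and 3.34 in control arrays. The diets did not overlap on either day, and the differences were 4.38 on day 3 (SE 0.81, adjusted p = 0.000482) and 4.25 on day 4 (adjusted p = 0.000553). Arg1 was also dim, with 11 of 28 arrays below the array's median.

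Arg1 differed by less on the later days. The day 7 signals were 6.87 and 6.12 in CLA arrays, against 3.91 and 4.09 in control arrays (difference 2.50, adjusted p = 0.0391). On day 10 they were 5.99 and 6.38 in CLA arrays and 3.70 and 3.70 in control arrays (difference 2.48, adjusted p = 0.0361). The calls of these days were lost when any 1 array of the day was left out, at differences of 2.12 to 2.87 on day 7 and 2.29 to 2.68 on day 10. Those fits keep control day 2 replicate 1. Without that array the differences of both days were unchanged, and their SE was 0.41 in place of 0.81. By day 17 the groups overlapped, at 4.67 and 5.26 in CLA arrays and 5.81 and 4.23 in control arrays. On day 1, CLA arrays read 4.19 and 5.11, control arrays 3.51 and 3.44. That difference of 1.18 missed the threshold in the fit of all arrays (adjusted p = 0.381) and passed it without control day 2 replicate 1, and likewise without control day 2 replicate 2 (adjusted p = 0.0493 each). Arg1 was 2.52 ± 0.50 log2 units higher under CLA over all 7 days (adjusted p = 0.0036), and 2.83 without control day 2 replicate 1 (adjusted p = 0.00411).

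Of 12 enzymes and carriers of arginine and polyamine metabolism measured beside Arg1, 5 rose over all 7 days and none fell at an adjusted p under 0.05, with a median difference of 0.20 log2 units, against -0.03 over all genes. Among all genes 18.7% rose and 19.8% fell. Slc7a1, which carries arginine into cells, rose by 1.47 ± 0.23 log2 units. Sat1, which breaks polyamines down, rose by 1.05 ± 0.22. Odc1, which makes the polyamine putrescine from ornithine, rose by 0.94 ± 0.22, and Srm, which makes spermidine, by 0.54 ± 0.14. Odc1 differed by 1.20, 1.21, 1.74, 1.62, 0.26, 0.41 and 0.10 over the 7 days in order, and Sat1 by 0.17, 0.31, 0.52, 1.54, 1.61, 1.43 and 1.8. Nos2, which uses the same arginine to make nitric oxide, did not pass the test (-0.15, adjusted p = 0.0878).

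Mrc1 encodes the mannose receptor CD206, an uptake receptor for mannose-bearing glycoproteins. It lies on chromosome 2 (14229414 to 14332023) and was the one member called on all 7 days. On day 3 it read 11.37 and 11.29 in CLA arrays, against 10.00 and 9.69 in control arrays. On day 17 it read 11.62 and 11.39 in CLA arrays and 9.78 and 9.86 in control arrays. Both CLA arrays lay above both control arrays on each of the 7 days, and the differences ran from 0.81 on day 1 to 1.69 on day 17 (SE 0.26, adjusted p = 0.0383 and 0.000104).

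Mrc1 was 1.28 ± 0.11 log2 units higher under CLA over all 7 days (adjusted p = 4.06e-05), a 2.43-fold difference, and 1.35 without control day 2 replicate 1. The diet by day interaction, which tests whether the effect differs between days, did not pass for Mrc1 (adjusted p = 0.631). Its calls of 3 days rested on single arrays. That of day 1 was lost without CLA day 1 replicate 1 (0.56) or control day 1 replicate 2 (0.44). That of day 2 was lost without CLA day 2 replicate 1 (0.95), CLA day 2 replicate 2 (1.05) or control day 2 replicate 2 (0.53). That of day 7 was lost without control day 7 replicate 2 (0.89).

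Clec10a and Mgl2 are neighbours on chromosome 11 (70166623 to 70170836 and 70130125 to 70137542). They encode MGL1 and MGL2, a pair of closely related lectins that bind galactose and N-acetylgalactosamine at the ends of sugar chains. On day 3 Clec10a read 12.10 and 11.65 in CLA arrays, against 9.67 and 9.39 in control arrays. On the same day Mgl2 read 5.57 and 5.90 in CLA arrays, against 7.15 and 6.82 in control arrays. Neither gene's diets overlapped on day 3, and the paralogs moved in opposite directions, Clec10a by 2.35 log2 units (5.08-fold, adjusted p = 2.41e-06) and Mgl2 by -1.25 (2.38-fold lower, adjusted p = 0.000219). Whether transcripts of one bind the probes of the other was not tested.

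Clec10a did not pass on day 1, at 9.35 and 8.95 in CLA arrays and 9.57 and 9.15 in control arrays, and rose on the other 6 days. On day 4 it read 11.54 and 11.80 in CLA arrays, against 9.07 and 9.77 in control arrays (difference 2.25, adjusted p = 2.6e-06). On day 10 it read 10.63 and 10.53 in CLA arrays, against 9.54 and 9.97 in control arrays (difference 0.82, adjusted p = 0.03). The day 10 call was lost without CLA day 10 replicate 1 (0.78), CLA day 10 replicate 2 (0.88) or control day 10 replicate 1 (0.61), and the day 2 call of 1.14 without CLA day 2 replicate 1 (1.04) or control day 2 replicate 2 (0.77). Clec10a was 1.32 ± 0.28 log2 units higher over all 7 days (adjusted p = 0.00489).

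Mgl2 fell on days 3, 4, 7 and 10. On day 4 it read 6.19 and 5.51 in CLA arrays, against 6.79 and 6.82 in control arrays (difference -0.95, adjusted p = 0.00218). On day 17 the groups overlapped, at 6.75 and 6.47 in CLA arrays and 6.68 and 6.71 in control arrays. The day 4 call was lost without CLA day 4 replicate 2 (-0.62), and those of days 7 and 10 without any 1 array of the day, at differences of -0.79 to -0.60 and -0.73 to -0.54. Leaving out either control array of day 17 also ended the day 10 call (adjusted p = 0.0505). Over all 7 days the difference of Mgl2 was -0.52 ± 0.18 (adjusted p = 0.0429), and this call did not hold without CLA day 1 replicate 1 (-0.48), control day 1 replicate 2 (-0.50), CLA day 2 replicate 2 (-0.51), control day 2 replicate 2 (-0.51), CLA day 4 replicate 2 (-0.48) or CLA day 17 replicate 2 (-0.50). It was also lost without any 1 of days 2, 3, 4, 7 and 10, at adjusted p of 0.0758, 0.105, 0.114, 0.1 and 0.0981, and without all replicates 2 (0.11).

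Cd163 encodes the receptor that takes up complexes of haptoglobin and haemoglobin, and it is nearly confined to macrophages. It lies on chromosome 6 (124304636 to 124330529). On day 3 it read 7.52 and 7.33 in CLA arrays, against 8.71 and 8.30 in control arrays. On day 4 it read 7.46 and 7.16 in CLA arrays, against 8.26 and 8.30 in control arrays. The diets did not overlap on these days, and Cd163 fell by 1.08 on day 3 (2.11-fold lower, SE 0.21, adjusted p = 0.000768) and by 0.97 on day 4 (adjusted p = 0.00174).

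These calls of Cd163 held when any 1 array was left out. Day 2, at -0.53, passed only without CLA day 2 replicate 1 (-0.83, adjusted p = 0.0381). On day 7 the groups overlapped, at 8.36 and 8.26 in CLA arrays and 8.27 and 8.39 in control arrays, with a difference of -0.02 and a 95% interval of -0.46 to 0.42. Over all 7 days the difference was -0.40 ± 0.16 and missed the threshold (adjusted p = 0.0744). It passed without CLA day 10 replicate 1 (-0.44, adjusted p = 0.0478) and without control day 17 replicate 1 (-0.42, adjusted p = 0.0492).

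Lyve1 encodes a hyaluronan receptor carried by resident macrophages near vessels and by lymphatic endothelium. It lies on chromosome 7 (110850607 to 110862953). On day 2 it read 10.22 and 9.96 in CLA arrays, against 9.30 and 8.51 in control arrays. Its second probe set read 9.75 and 9.75 in CLA arrays on that day, against 8.72 and 8.14 in control arrays. For both probe sets the CLA arrays of day 2 were the brightest of all 28 arrays, and the differences were 1.19 (adjusted p = 0.0399) and 1.32.

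Day 2 was the only day on which Lyve1 passed the test. The call was lost without CLA day 2 replicate 1 (1.06), CLA day 2 replicate 2 (1.32) or control day 2 replicate 2 (0.79), and the loss of either control array of day 17 moved its adjusted p to 0.0507. Without control day 2 replicate 1 the difference was 1.58 (adjusted p = 0.0146). On days 3, 4, 7 and 10 the diets overlapped. The 2 probe sets differed in sign on days 7 and 10, at -0.42 and 0.33 for the first and 0.09 and -0.025 for the second. Over all 7 days the difference of 0.36 ± 0.16 missed the threshold (adjusted p = 0.108) and passed it without control day 7 replicate 1 (0.42, adjusted p = 0.0277).

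Markers of lymphatic endothelium, which also carries Lyve1, were set beside it. Of 9 measured, 2 rose and 2 fell over all 7 days, near the shares of all genes (18.7% up and 19.8% down). Pdpn (podoplanin, also on some stromal cells and macrophages) rose by 0.84 log2 units and Stab2 (a hyaluronan scavenger receptor) by 1.18, while Flt4 (the receptor for VEGF-C) fell by 0.33 and Nr2f2 by 0.38. Prox1, the transcription factor that defines lymphatic endothelium, had a mean log2 signal of 2.62 and differed by -0.03. The summed signal of the list was 568 to 1320 in CLA arrays, 466 to 676 in the other control arrays and 1090 in control day 2 replicate 1. This sum of linear signals is mostly that of Pdpn, with a mean log2 signal of 8.97. The next brightest of the list was Nr2f2 at 6.30, which fell. The part of lymphatic endothelium in the Lyve1 values was not tested.

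Folr2 encodes folate receptor beta, a surface protein that binds folate and marks resident macrophages of many tissues. It lies on chromosome 7 (101839988 to 101857190). On day 1 it read 7.55 and 8.11 in CLA arrays, against 7.92 and 8.97 in control arrays, and the groups overlapped. On day 4 it read 10.35 and 10.64 in CLA arrays, against 8.78 and 9.49 in control arrays. By day 17 the signals were 10.62 and 10.68 in CLA arrays, against 8.83 and 9.21 in control arrays. The CLA arrays lay above the control arrays on every day from day 3 on, and the differences were 1.36 on day 4 (adjusted p = 0.00311) and 1.63 on day 17 (3.1-fold, SE 0.32, adjusted p = 0.000856).

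The day 17 call of Folr2 held when any 1 array was left out. That of day 4 was lost without control day 4 replicate 1 (1.00) and that of day 7, at 1.07, without CLA day 7 replicate 1 (0.78), control day 7 replicate 1 (1.01) or control day 7 replicate 2 (1.14). That of day 10, at 0.97, was lost without any 1 array of the day (0.87 to 1.09). On day 1 the difference of -0.61 missed the threshold (adjusted p = 0.212) and passed it as a fall without control day 1 replicate 1 (-1.14, adjusted p = 0.023). Folr2 was 0.79 ± 0.24 log2 units higher over all 7 days (adjusted p = 0.0278), a call that did not hold without CLA day 1 replicate 2 (0.75, adjusted p = 0.0547) or control day 1 replicate 1 (0.71, adjusted p = 0.0898). It was also lost without any 1 of days 3, 4, 7, 10 and 17, at adjusted p of 0.0597, 0.078, 0.0725, 0.0716 and 0.0731.

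Timd4 encodes TIM-4, a receptor for phosphatidylserine on dying cells that marks resident macrophages maintained by their own division. It lies on chromosome 11 (46810786 to 46844333) and was dim as well, with 2 of 28 arrays below the array's median. On day 7 it read 4.32 and 4.41 in CLA arrays, against 5.35 and 5.01 in control arrays. On day 17 it read 5.27 and 4.54 in CLA arrays, against 4.89 and 4.61 in control arrays. The diets lay apart on day 7 and overlapped on day 17.

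No single day of Timd4 passed the test, and day 7 came nearest (-0.81, adjusted p = 0.0729). That day passed without CLA day 4 replicate 1 or CLA day 4 replicate 2 (adjusted p = 0.0241 each), and day 4 passed without CLA day 4 replicate 1 (-1.18, adjusted p = 0.00765). Over all 7 days the difference was -0.43 ± 0.12 (adjusted p = 0.0156). The call was lost without CLA day 17 replicate 2 (-0.38, adjusted p = 0.0751), and with either replicate alone over all days (adjusted p = 0.0581 without replicate 1 and 0.0801 without replicate 2).

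Day 2 was set against each control array separately. Against control replicate 1 alone, none of the 10 members rose at an adjusted p under 0.05 and 1 fell, where 0.368% of all genes rose and 1.52% fell. The member that fell was Retnla (-1.43, adjusted p = 0.000232). Against control replicate 2 alone, 5 members rose and 1 fell, where 7.51% of all genes rose and 5.86% fell.

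The choice of control array decided the size for 2 genes above all. Chil3 read 10.38 and 9.70 in the CLA arrays of day 2, against 9.32 and 3.37 in the control arrays. Its difference was 0.72 against the first control array (adjusted p = 0.702), 6.67 against the second (adjusted p = 3.34e-08) and 3.69 against both (adjusted p = 0.0282). Arg1 read 8.36 and 8.65 in CLA arrays, against 7.78 and 3.44 in control arrays, with differences of 0.72 (adjusted p = 0.717), 5.07 (adjusted p = 1.27e-06) and 2.90 (adjusted p = 0.0271). The calls of Chil3 and Arg1 against both control arrays were also lost without CLA day 2 replicate 1 (3.35 and 3.04) or CLA day 2 replicate 2 (4.04 and 2.75).

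The first control array lay outside the range of the control arrays of the other days for 5 members, Chil3, Arg1, Mrc1, Clec10a and Lyve1, on the side of the CLA arrays each time. Mrc1 read 10.79 there, against 9.42 to 10.33 in the control arrays of the other days. For Retnla, Mgl2, Cd163, Folr2 and Timd4 it lay inside. The share of all genes for which this array lay outside that range was not counted, so the count of 5 has no background to compare with. The array also had raised monocyte markers, with a summed signal of 1970, against 555 to 853 in the other control arrays, and raised general macrophage markers, with 11900 against 6020 to 7970. Its adipocyte markers summed to 40300, against 40900 to 55200 in the other control arrays and 25100 to 32100 in CLA arrays. What sets this array apart was not tested.

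**Figure D3:**
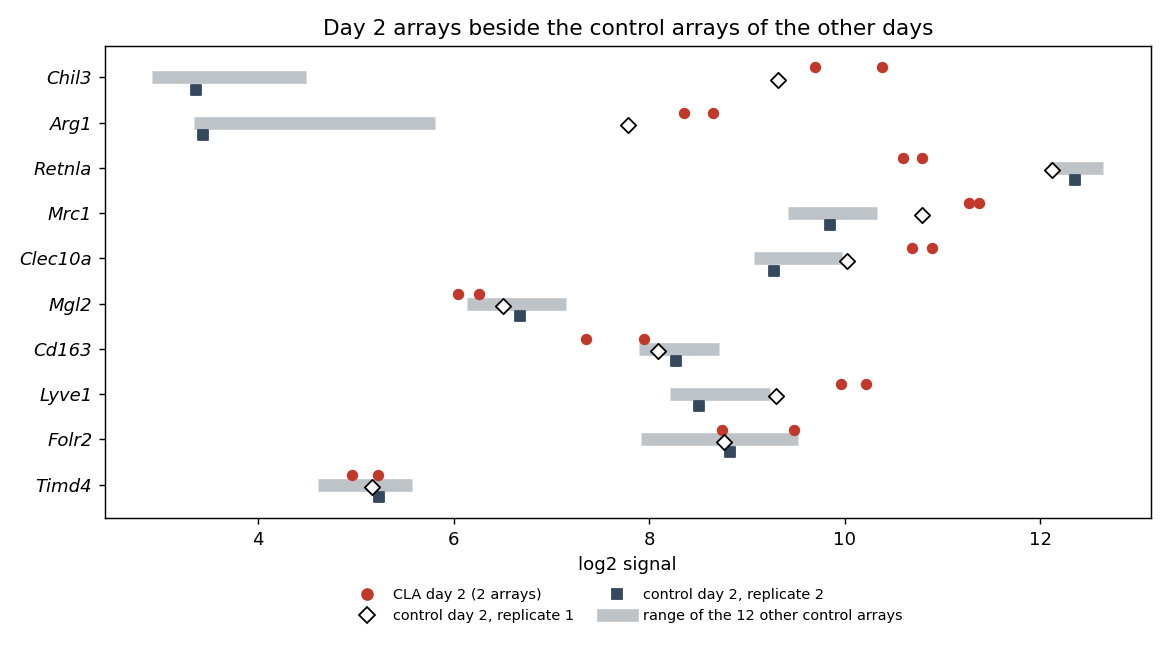
Log2 signal (horizontal axis) of the 10 genes (rows) on day 2, with the CLA arrays as red circles, control replicate 1 as an open diamond, control replicate 2 as a dark square and a grey bar for the range of the control arrays of the other days. The diamond lies beside the CLA arrays for Chil3 (9.32) and Arg1 (7.78) and inside the grey bar for Retnla, Mgl2, Cd163, Folr2 and Timd4.

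The effect of CLA differed between days for 5 members by the interaction test, where 9.82% of all genes passed. These were Retnla (adjusted p = 5.84e-05), Clec10a (0.00105), Mgl2 (0.0128), Folr2 (0.0257) and Cd163 (0.0329). Without control day 2 replicate 1, Chil3 (adjusted p = 9.92e-07) and Arg1 (5.28e-05) passed as well, which made 7, where 10.6% of all genes passed. In the fit of all arrays they missed it, at 0.0685 and 0.0946, and they also passed without control day 2 replicate 2 (3.06e-06 and 9.38e-05).

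The interaction calls of Cd163 and Folr2 rested on single arrays. That of Cd163 was lost in 12 of 37 alternatives, at adjusted p up to 0.0881. Without day 1 was one of them, and the other 11 each left out 1 array: CLA replicate 2 or control replicate 1 of day 3, CLA replicate 2 or either control of day 4, either replicate 1 of day 7, control replicate 2 of day 10, and either CLA array or control replicate 1 of day 17. That of Folr2 was lost in 6 of 37, once without day 1 and otherwise without CLA day 1 replicate 1 (0.113), control day 1 replicate 2 (0.0888), CLA day 17 replicate 1 (0.0514), CLA day 17 replicate 2 (0.0546) or control day 17 replicate 1 (0.0579). Without day 1, a setting added after the data were seen, only Retnla of the 5 still passed, and Clec10a, Mgl2, Cd163 and Folr2 had adjusted p of 0.0712, 0.149, 0.0643 and 0.328.

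Over the CLA arrays alone, 8 of the 10 members differed between days, where 25.3% of all genes did. Over the control arrays alone, none of the 10 passed limma's F test, where 0.115% of all genes did, and none had an unadjusted p under 0.05 either (lowest 0.0884, for Chil3). Without control day 2 replicate 1 these counts were again 8 and none, against 26.3% and 0.0824% of all genes, and over the control arrays Arg1 then had an unadjusted p of 0.0152. The control levels of Chil3 and Arg1 did differ between days without control day 2 replicate 2, when replicate 1 stands for the day (adjusted p = 1.18e-05 and 0.00061). Mrc1 and Timd4 were the members that did not pass over the CLA arrays (adjusted p = 0.151 and 0.27), and Timd4 passed without CLA day 4 replicate 1 (adjusted p = 0.0246). The call of Lyve1 over the CLA arrays was lost without CLA day 2 replicate 1 (adjusted p = 0.171), CLA day 2 replicate 2 (0.0774) or CLA day 7 replicate 2 (0.0512).

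The mean effect on days 7, 10 and 17 was compared with that on days 1, 2 and 3. In this late minus early contrast 3 members rose and 1 fell, where 6.2% of all genes rose and 3.51% fell (centred on the medians, 942 rose and 1069 fell in place of 1128 and 639). Chil3 fell by 3.96 ± 0.85 log2 units (adjusted p = 0.00506). Folr2 rose by 1.07 ± 0.26 (adjusted p = 0.0112), Retnla by 0.75 ± 0.12 (adjusted p = 0.000473) and Cd163 by 0.61 ± 0.17 (adjusted p = 0.0306).

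The 3 genes that rose in this contrast did so in different ways. For Retnla and Cd163 the later effect was nearer to 0, after lower levels under CLA on the early days. For Folr2 the later effect was a higher level under CLA, after a day 1 value of -0.61. Arg1 missed the threshold with all arrays (-1.18, adjusted p = 0.302) and passed without control day 2 replicate 1 (-1.90, adjusted p = 0.00135), which made 3 that rose and 2 that fell, against 5.63% and 3.64% of all genes. The call of Cd163 was lost in 13 of 38 alternatives, at adjusted p up to 0.0747. These were both other scalings and the loss of 1 array, namely CLA replicate 2 of day 1, either replicate 2 of day 2, CLA replicate 2 or control replicate 1 of day 3, either replicate 1 of day 7, CLA replicate 1 or control replicate 2 of day 10, and CLA replicate 2 or control replicate 1 of day 17. That of Folr2 was lost without day 1 (0.69, adjusted p = 0.117) and with days 3 and 4 as the early days (0.17, adjusted p = 0.855). With those early days Arg1 passed as a fall (-2.68, adjusted p = 0.049).

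**Figure D4:**
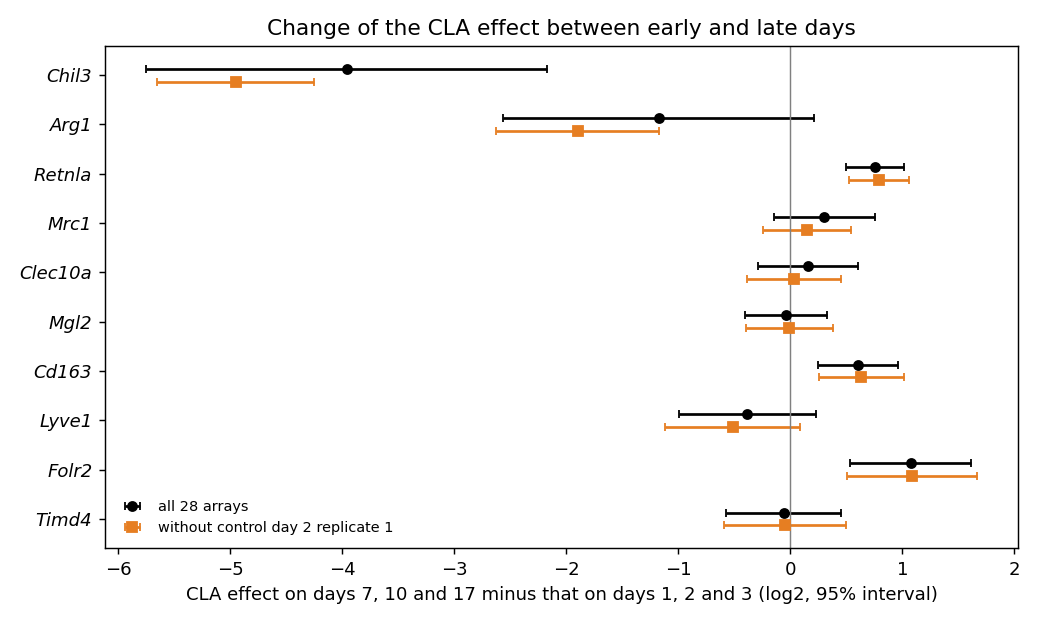
Late minus early difference of the mean CLA effect (log2, horizontal axis) for the 10 genes (rows), as points with 95% intervals, in black for all 28 arrays and in orange without control day 2 replicate 1. Chil3 lies at -3.96 in black and -4.95 in orange, and the interval of Arg1 leaves 0 only in orange.

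For each member with a call over all 7 days or in the interaction, the other gene with the smallest mean absolute distance between the 7 daily differences was taken. Each such value describes 7 points from the same arrays. The gene nearest to Cd163 was Fcna, a lectin of the ficolin family made by macrophages, at a mean distance of 0.07 log2 units. The gene nearest to Retnla was Cd209b, a C-type lectin of macrophages, at 0.17, with differences of -1.84 on day 2 and 0.04 on day 17. Nearest to Folr2 came Stard8 at 0.14, and then Lyl1, a transcription factor of blood cells, at 0.15.

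The other nearest genes were of other kinds. Chil3 had no close companion: its nearest gene, Sprr1a (a small proline-rich protein of epithelia), lay 0.94 away, and the second, Slfn4, 1.05. Nearest to Arg1 were Spdl1 (0.61) and Bub1 (0.63), genes of the mitotic spindle and its checkpoint. Mrc1 had Rpl14, a ribosomal protein, at 0.10 and Rassf5 at 0.11. Clec10a had Kcnab2 at 0.16 and Rfc5, a part of the clamp loader of DNA replication, at 0.19. Mgl2 had Jcad at 0.15 and Cys1 at 0.15, and Timd4 had Leng1 and Nbl1 at 0.13. Igfbp3, which binds insulin-like growth factors, was second for Retnla (0.19) and Rora, a nuclear receptor, second for Cd163 (0.13).

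The pathway that drives alternative activation was examined as a list. Over all 7 days 18.7% of all genes rose and 19.8% fell, the shares for this and the lists that follow. Of 16 genes measured for interleukin 4, interleukin 13 and STAT6 signalling and its partners, 7 rose and none fell over all 7 days at an adjusted p under 0.05, with a median of 0.25 log2 units, against -0.03 over all genes. The receptor chains Il4ra and Il13ra1 rose by 0.79 ± 0.18 and 0.69 ± 0.14. Il10ra, a chain of the interleukin 10 receptor, rose by 1.44 ± 0.27, and Il10 itself by 1.06 ± 0.27. Both count among the 7 that rose, though they belong to interleukin 10 signalling and not to the interleukin 4 and 13 pathway. The cytokine genes Il4 and Il13 did not pass, with differences of -0.06 and 0.01 (adjusted p = 0.496 and 0.915) and mean log2 signals of 3.2 and 3.36. Il4ra differed by 1.97 on day 1 and by 0.32 on day 2.

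Other genes linked to alternative activation did not all move the same way either. Of 17 measured, 6 rose and 1 fell over all 7 days, with a median of 0.14. Il1rn, the natural blocker of the interleukin 1 receptor, rose by 3.95 ± 0.47, Egr2, a transcription factor, by 3.29 ± 0.29, Cd200r1, an inhibitory receptor of myeloid cells, by 3.06 ± 0.40 and Ccl8, a chemokine, by 2.30 ± 0.25. Cd209a, a lectin of dendritic cells, fell by 0.56 ± 0.10. The chemokine genes Ccl17, Ccl22 and Ccl24 did not pass, and Ccl24 had daily differences of 0.43, -0.59, -1.43, -1.27, -0.98, -0.81 and 0.18.

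Of 22 other genes of resident macrophages, 8 rose and 3 fell over all 7 days, with a median of 0.08. C1qb and C1qc, chains of the complement protein C1q, rose by 1.35 ± 0.21 and 1.11 ± 0.33. Pf4, a chemokine, rose by 1.13 ± 0.16 and Cd5l, an inhibitor of macrophage death, by 2.08 ± 0.40. Gas6, Igf1 and Fcgrt fell, by 0.23, 0.24 and 0.68. On day 3, 4 of the 22 rose and 6 fell, against 11.3% and 11% of all genes. On day 17, 8 rose and none fell at an adjusted p under 0.05, against 11.5% and 8.78%. Fcna differed by -1.04 on day 3 and by 0.43 on day 17, Cd209g by -0.86 and 0.37, and Slc40a1, the iron exporter ferroportin, by -1.03 and 0.49.

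General macrophage markers rose together. All 12 rose over all 7 days, with a median of 2.09 log2 units. Fcgr1, an antibody receptor, rose by 3.47 ± 0.26, Mpeg1, a pore-forming protein, by 3.00 ± 0.35, Cd68, a lysosomal protein, by 2.78 ± 0.39 and Tyrobp, a signalling adaptor, by 2.47 ± 0.29. On day 1, 2 of the 12 rose, and on day 4 all 12, against 7.96% and 12.8% of all genes. Their summed signal was 7020 to 38700 in CLA arrays and 6020 to 7970 in the other control arrays. The part that a larger number of macrophages has in the members' values was not tested.

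Genes of classical activation, the programme set against the alternative one, also changed. Of 14 measured, 7 rose and 1 fell over all 7 days, with a median of 0.55. Cxcl10, a chemokine induced by interferon, rose by 2.56 ± 0.43, Irf5, a transcription factor, by 2.03 ± 0.22, Ccl5, a chemokine, by 1.46 ± 0.17 and Cd86, a co-stimulatory protein, by 0.88 ± 0.16. The gene that fell was Cxcl9, another chemokine, by 0.48 ± 0.16. On day 1, 8 of the 14 rose, against 7.96% of all genes.

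**Figure D5:**
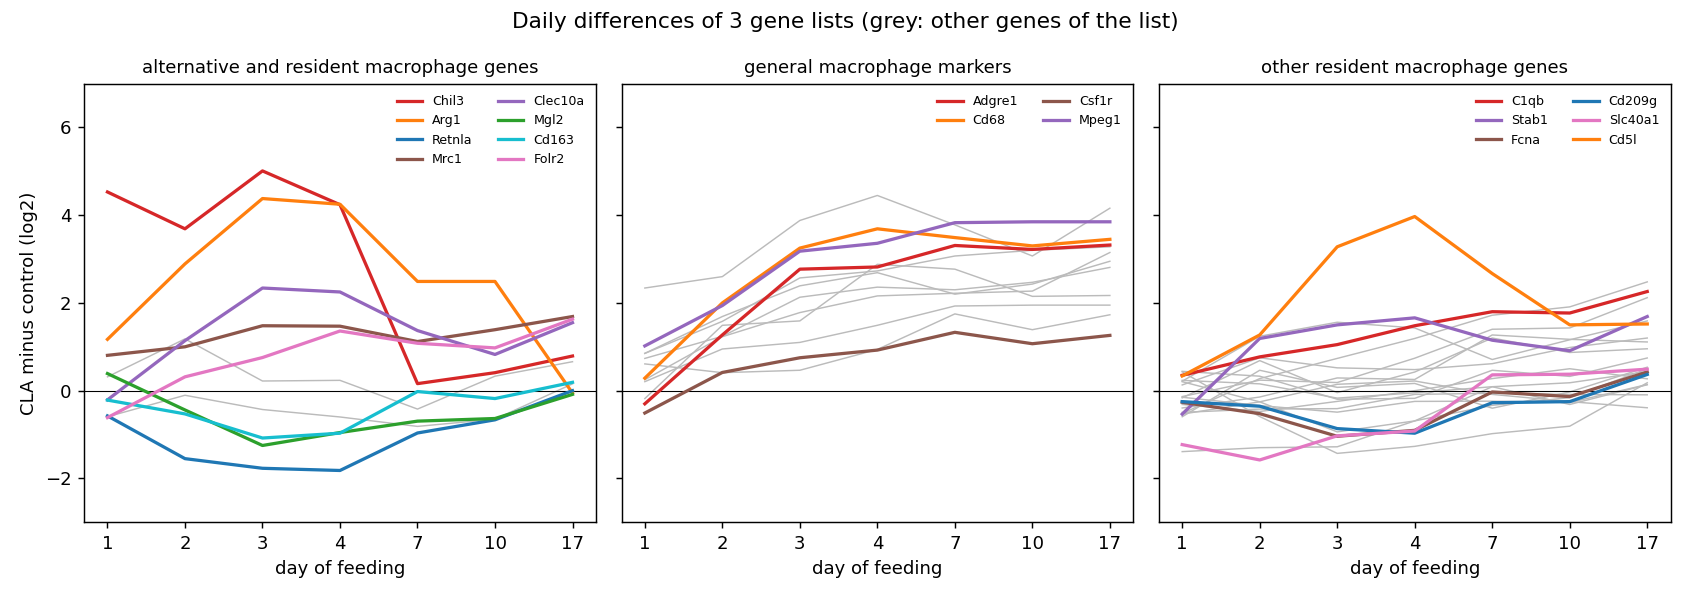
CLA minus control difference (log2, vertical axis) by day of feeding (horizontal axis) for the 10 members, the 12 general macrophage markers and the 22 other genes of resident macrophages measured, with named genes in colour and the others of each list in grey. Chil3 is at 5.01 on day 3 and 0.16 on day 7, while Mpeg1 is at 3.18 on day 3 and 3.83 on day 7.

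Markers of other cells that could carry these transcripts were set beside the members. Chil3 is also made by neutrophils and their precursors. Of 11 such markers 2 rose (Csf3r and Mmp8) and 2 fell (Prtn3 and Elane) over all 7 days. These counts are near the shares of all genes, 18.7% up and 19.8% down. On day 1, 4 of the 11 rose, against 7.96% of all genes. S100a8 and S100a9, the main cytosolic proteins of neutrophils, differed by 2.57 and 3.47 on day 1, by 1.00 and 1.16 on day 3 and by -0.44 and -0.55 on day 4. The summed signal of the neutrophil list was 198 to 935 in CLA arrays, 198 to 633 in the other control arrays and 856 in control day 2 replicate 1. Mpo and Elane, which define neutrophil precursors, had mean log2 signals of 3.60 and 4.03. The part of neutrophils in the Chil3 values was not tested.

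Monocyte markers rose, 5 of 7 over all 7 days and none down at an adjusted p under 0.05. Plac8 rose by 1.55 ± 0.13, Ccr2, the receptor that brings monocytes into tissue, by 1.54 ± 0.08, Vcan by 0.99 ± 0.11 and Nr4a1 by 0.44 ± 0.12. Their summed signal was 1320 to 2970 in CLA arrays, against 555 to 853 in the other control arrays. Of 10 dendritic cell markers, 4 rose and 1 fell over all 7 days. Itgax, also on macrophages of obese fat, rose by 2.38 ± 0.45, Irf8 by 1.83 ± 0.25 and Batf3 by 0.71 ± 0.21, and Cd209a was the one that fell. Flt3 (0.19), Zbtb46 (0.001), Xcr1 (0.06), Siglech (-0.11) and Kit (-0.26) did not pass. The dendritic cell list summed to 370 to 1510 in CLA arrays and 332 to 414 in the other control arrays. Its brightest genes were Irf8 and Itgax, with mean log2 signals of 7.78 and 6.11. The part of dendritic cells in these values was not tested. Eosinophils, a source of interleukin 4 in fat, gave little signal: the list summed to 34.4 to 43.1 in CLA arrays and 35.7 to 43.4 in the other control arrays. Ccr3 rose by 0.23 ± 0.07, and Prg2 did not pass (-0.06).

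Markers of the cells that make up the rest of the pad fell. All 9 adipocyte markers fell over all 7 days, with a median of -1.43, and their summed signal was 25100 to 32100 in CLA arrays and 40900 to 55200 in the other control arrays. Slc2a4, which takes up glucose in answer to insulin, fell by 2.25 ± 0.12, Lipe, hormone-sensitive lipase, by 2.04 ± 0.17, the hormone gene Lep by 1.87 ± 0.28 and Cidec, a lipid droplet protein, by 1.64 ± 0.13. Of 8 markers of blood endothelium, 6 fell, among them Cldn5 (-1.28), Cdh5 (-1.26), Kdr (-1.21) and Pecam1 (-0.85). Of 8 mesothelium markers, 5 fell, among them Upk3b (-0.62), Krt19 (-0.59), Muc16 (-0.50) and Msln (-0.49). Endothelium summed to 561 to 1500 in CLA arrays and 1140 to 1880 in the other control arrays, and mesothelium to 594 to 1390 in CLA arrays and 1080 to 1720 in the other control arrays. On day 4, when Retnla, Mgl2 and Cd163 fell, 7 of 9 adipocyte, 6 of 8 endothelium and 5 of 8 mesothelium markers fell too, against 11.3% of all genes. On day 17 these members differed by 0.00, -0.085 and 0.19. Over all measured markers of each list the day 17 differences ran from -2.77 to -0.105 (adipocyte), -1.65 to 0.405 (endothelium) and -0.70 to 0.465 (mesothelium). Of the 3 lists only Tek (0.4), Vwf (0.405) and Wt1 (0.465) had a positive difference on day 17. Whether cells of these kinds contribute to the transcripts of Retnla, Mgl2 and Cd163 was not tested.

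Relatives of the receptor members varied. Of 17 scavenger, folate and TIM family genes measured, 6 rose and 3 fell over all 7 days, with a median of 0.06. Cd44, another hyaluronan receptor, rose by 3.33 ± 0.19, Msr1, a scavenger receptor, by 2.12 ± 0.16, Cd5l by 2.08 and Stab2 by 1.18 ± 0.37. The folate carriers Slc19a1 and Slc46a1 fell by 0.95 ± 0.10 and 1.07 ± 0.09 while Folr2 rose. The other receptor of the folate family measured, Folr1, had a mean log2 signal of 3.26 and differed by -0.02.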

How the data were processed

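RNA of pooled retroperitoneal fat was hybridised to 28 Affymetrix arrays, from 15 µg of total RNA per the labels' protocols. The deposited values are log2 probe-set signals made by the authors with RMA, per the labels and the submitters' processing notes, which give no version. RMA in general corrects background, equalises arrays by quantiles and summarises probes, which can compress large folds. For the probe annotation, a build is not given in the sources used here. No further normalisation and no filter on dim signals was applied.

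Of 45101 probe sets, 34958 name 1 gene, 932 several and 9211 none, and 18194 genes were tested by their brightest probe set. limma 3.58.1 in R 4.3.3 fitted the 14 groups (14 residual degrees of freedom) for the daily, late minus early, interaction and by-day tests, and the 14 group means with day as a block for the effect over all 7 days. Tests are two-sided with Benjamini-Hochberg adjustment over all genes, and errors are standard errors. The code was tested on simulated data. Number of arrays limits the precision.

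The members and lists were chosen with earlier results of these data known. All members are named, with the nearest 2 genes of each called member and up to 4 called genes of each list by size over all 7 days, or the 2 brightest where fewer than 2 were called. Genes outside this rule were picked after their values were seen: Il4, Il13, Nos2, Chil4, Prox1, Adipoq, Fabp4, S100a8, S100a9, Mpo, Folr1, Slc19a1, Slc46a1, Ccl17, Ccl22, Ccl24, Cd209a, Gas6, Igf1, Fcgrt, Fcna, Cd209g, Slc40a1, Cxcl9, Flt3, Zbtb46, Xcr1, Siglech, Kit, Tek, Vwf, Wt1 and, in a figure, Adgre1, Csf1r and Stab1. Promoters are from RefSeq (GRCm38.p6). Figures used matplotlib 3.10.9 in Python 3.11.15. Alternatives were other normalisations, filters, probe sets, variance models, blocks, day subsets and arrays left out in turn.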

Additional observations from a re-analysis of the deposited data

Results flagged for a closer look

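The effect of CLA differed between days for 5 of the 10 genes by limma's interaction test of diet and day over all 28 arrays, where 9.82% of all genes passed. Retnla had an adjusted p of 5.84e-05, with daily differences that ran between -1.82 on day 4 and 0.00 on day 17. Clec10a had an adjusted p of 0.00105, with -0.21 on day 1 and 2.35 on day 3. Mgl2 had an adjusted p of 0.0128, with 0.39 on day 1 and -1.25 on day 3. Folr2 had an adjusted p of 0.0257, with -0.61 on day 1 and 1.63 on day 17. Cd163 had an adjusted p of 0.0329, with -1.08 on day 3 and 0.19 on day 17. With day 1 left out, Retnla alone of the 5 still passed.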

How the results depend on the processing

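With single arrays left out, the number of the 10 genes called ran from 1 to 4 on day 1, 1 to 6 on day 2, 2 to 7 on day 7 and 1 to 6 on day 10, from 3 to 7 in the interaction and from 0 to 2 over the control arrays by day. With only the 4 arrays of the day fitted, 1 gene was called on day 1 and 0 on day 2 by limma. With the dimmer genes left out, which removes Chil3, Arg1 and Timd4, 5 were called over all 7 days (3 up and 2 down of 7 measured). Without day 1, a setting chosen after seeing the data, 1 was called in the interaction. The cause of these moves was not tested, apart from the fewer arrays or genes.

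Some differences changed sign. With days 3 and 4 as the early days, late minus early became -0.078 for Mrc1, -1.05 for Clec10a (adjusted p = 0.0138), 0.63 for Mgl2 and 0.078 for Timd4. Without day 1 it became -0.50 for Clec10a and 0.37 for Mgl2, and without day 2, 0.076 for Timd4. With single arrays left out, uncalled differences ran across 0: Arg1 on day 17 (-0.84 to 0.73), Chil3 on day 7 (-0.42 to 0.74), Cd163 on day 7 (-0.08 to 0.04) and day 10 (-0.48 to 0.12), Folr2 on day 2 (-0.055 to 0.69), Mgl2 on day 17 (-0.23 to 0.055) and late minus early (-0.13 to 0.057), and Timd4 on day 2 (-0.24 to 0.03), day 17 (-0.21 to 0.52) and late minus early (-0.18 to 0.062). For Lyve1 they were -0.06 to 0.50 on day 3, -0.22 to 0.69 on day 4, -0.86 to 0.02 on day 7 and -0.20 to 0.86 on day 10.

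The replicate numbers do not pair the arrays by the labels. Deviations of same-numbered arrays correlated at 0.566, 0.49, 0.228, 0.114, 0.0978, 0.345 and 0.101 on the 7 days in order. With the replicate block over all days, 4060 genes were called on day 1, against 3420 without it, and the interaction of Chil3 passed (adjusted p = 0.0223). With the replicate block within each day, 4879 were called on day 1, and Folr2 on day 3 (adjusted p = 0.0234) and Timd4 on day 7 (adjusted p = 0.0423) passed. Of the values of single genes over all alternatives, 4304 kept their side of the threshold and, for differences other than 0, their direction. F tests, which have no direction, are among them. A change of sign was counted first, for 31 values, and of the others 124 lost the call and 35 gained it.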
